A study of Arabidopsis thaliana with 3 samples.

Results

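The 10 genes described here encode A- and B-type mitotic cyclins of Arabidopsis thaliana. They were taken by locus identifier from a deposited table of transcript levels in sperm cells, and all 10 were found among its 33602 transcripts, which give 1 transcript per locus. They are CYCA1;1 (AT1G44110) and CYCA2;1 (AT5G25380) of the A class and 8 genes of the B class. The B class genes are CYCB1;1 (AT4G37490), CYCB1;2 (AT5G06150), CYCB1;3 (AT3G11520), CYCB1;4 (AT2G26760), CYCB2;1 (AT2G17620), CYCB2;2 (AT4G35620), CYCB2;3 (AT1G20610) and CYCB3;1 (AT1G16330). RNA came from sperm cells of wild-type Col-0 plants, the common laboratory ecotype. The cells were purified by fluorescence-activated sorting and sequenced with Smart-seq2, a protocol for very small amounts of RNA. Labels describe 3 sperm libraries and no other genotype, treatment or stage, and do not say whether the libraries came from separate plants or sorts. The table holds a single sperm value for each transcript, the authors' mean in TPM, which is a share of all transcripts corrected for transcript length. No level below therefore carries an SD, and no order between genes could be set against the spread between libraries.

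Cyclins are the regulatory subunits of cyclin-dependent kinases. A-type cyclins act from DNA replication to early mitosis, and B-type cyclins act at entry into mitosis and during it, until the anaphase-promoting complex (APC/C) marks both kinds for degradation. In Arabidopsis pollen, the generative cell divides once to give the pair of sperm cells. The male germline transcription factor DUO1 is known to be required for that division. Mature sperm do not divide again before fertilisation.

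A single gene gave most of the summed level of these 10 cyclins. CYCB1;2, a B1-type cyclin, was at 1104 TPM and stood at rank 79 of all transcripts in the table. The share of transcripts that reached 1000 TPM was 0.265%. This gene made up 81.5% of the summed level of the 10 genes and was 11.5 times as abundant as the next one. All other members were below 100 TPM.

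**Figure D1:**
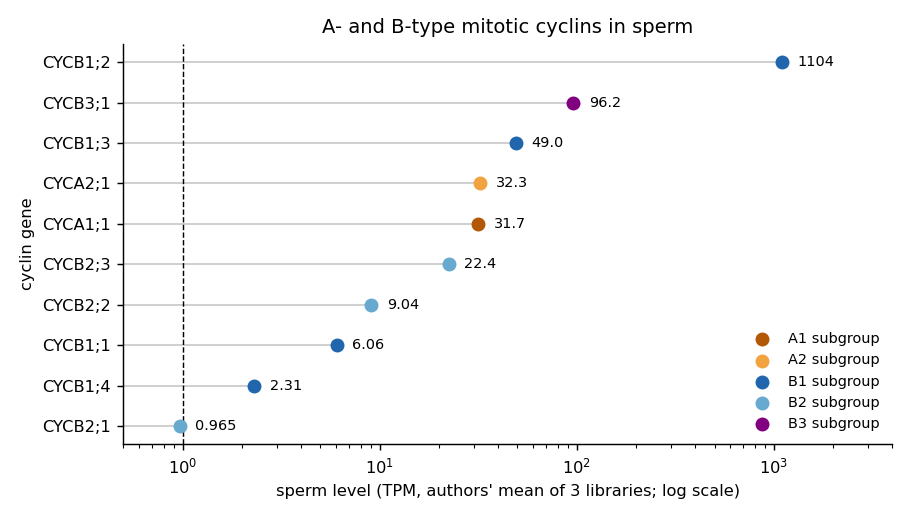
Sperm level of each of the 10 cyclin genes in TPM on a log axis, as the authors' mean of 3 libraries, coloured by subgroup, with a dashed line at 1 TPM. The highest gene stands apart at 1104 TPM, and the lowest, at 0.965 TPM, lies just below the line.

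The B1 group spanned the widest range of the subgroups. B1-type cyclins are known to help organise the microtubule arrays of dividing cells. Next in this group was CYCB1;3 at 49.0 TPM. CYCB1;1, the B-type cyclin most used as a reporter of G2 and M phase and known to be induced by DNA damage, was at 6.06 TPM. Its level was below that of 7 other members. CYCB1;4 was at 2.31 TPM.

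In the B2 group, CYCB2;3 was at 22.4 TPM, CYCB2;2 at 9.04 TPM and CYCB2;1 at 0.965 TPM, the lowest of all 10. CYCB3;1, which also has a known function in meiosis, was at 96.2 TPM, the second highest level. Both A-type members lay close together, with CYCA2;1 at 32.3 TPM and CYCA1;1 at 31.7 TPM. A2-type cyclins are known to act with a B1-type cyclin-dependent kinase in divisions of the leaf epidermis. Apart from the step below the highest gene, each gene was under 3 times as abundant as the next one in the order. Without values per library, none of these steps can be called larger than the spread between libraries.

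In all, 9 of the 10 members reached 1 TPM, against 21.7% of all transcripts in the table and 25.8% of its 26712 protein-coding loci. At 5 TPM the count was 8 of 10, against 12.7% of all transcripts. At 10 TPM it was 6 of 10, against 9.5%, and at 100 TPM it was 1 of 10, against 2.29%. No member was listed at 0, against 43.1% of all transcripts. The members' median was 27.0 TPM, against 0.0209 TPM over the whole table. The lowest member, at 0.965 TPM, lies so near 1 TPM that all 10 passed when levels were rescaled without the 10 most abundant transcripts. The genes were chosen with earlier results of these data known, so these counts describe the genes and test nothing.

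**Figure D2:**
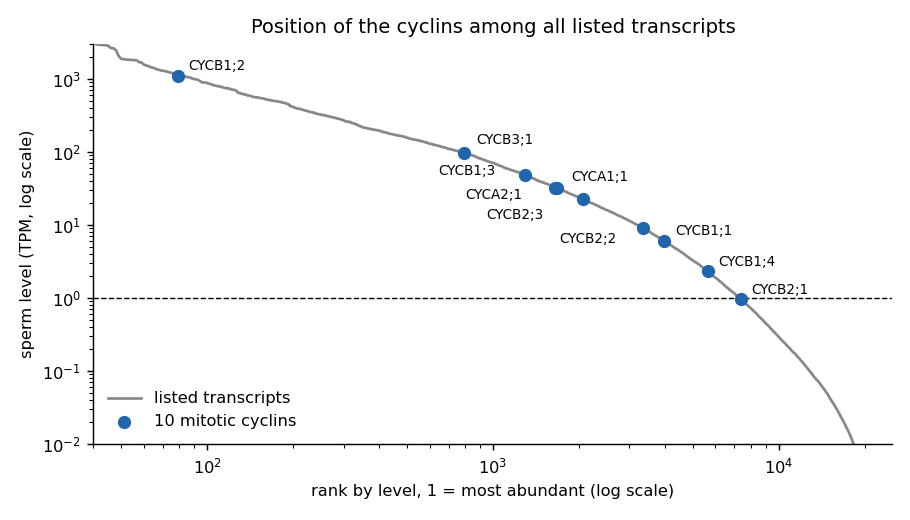
Level in TPM against rank for the transcripts of the ranks and levels shown (grey line) and for the 10 cyclins (points), both axes on a log scale, with a dashed line at 1 TPM. The cyclins run from rank 79 to rank 7355, where the lowest of them meets the dashed line.

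The digits of a mean carry some information on the libraries behind it. If each library's value was printed with 6 significant digits, 3 times the mean keeps the last decimal place of the smallest of the 3 values. For the highest gene the libraries summed to 3311.73 TPM, with no digit beyond the second decimal. Libraries that were all at or above 1000 TPM would leave this, and none of them could then exceed 1312 TPM. For CYCB2;3 the sum of 67.0757 TPM would by the same reading come from libraries between 10 and 47.1 TPM. For CYCB1;4 the sum of 6.93471 TPM would come from libraries between 1 and 4.93 TPM. These are the narrowest ranges for their means. Others were wider, from 10 to 75.0 TPM for CYCA1;1, from 10 to 127.0 TPM for CYCB1;3, from 1 to 25.1 TPM for the B2-type gene AT4G35620 and from 1 to 16.2 TPM for the B1-type gene AT4G37490. A library listed at 0, or last digits that are or add up to 0, would leave no trace, so these ranges are conditional. For the lowest gene the sum was 2.896114 TPM, and a sixth decimal can come only from a library below 1 TPM. The sums for CYCA2;1 (96.941 TPM) and CYCB3;1 (288.534 TPM) stop at the third decimal. Libraries that were all at or above 100 TPM would leave that place, but would exceed either sum. The first sum must therefore hide a digit, the second hides a digit or a library at 0, and neither gives a range.

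Another 12 cyclin genes were examined, from the A and B classes and with the meiotic cyclin SDS among them. Of these, 3 reached 1 TPM, against 21.7% of all transcripts, and 6 were listed at 0, against 43.1%, so their counts were near those of the whole table. Their median was 0.0576 TPM. The highest was TAM (AT1G77390), an A1-type cyclin known for its part in the meiotic divisions, at 13.1 TPM, which is above 4 of the members. The A3-type gene AT1G47230 was at 3.70 TPM, the B1-type gene AT1G34460 at 1.43 TPM and the A3-type gene AT5G43080 at 0.223 TPM. The other A2-type genes (AT5G11300, AT1G15570 and AT1G80370) were all listed at 0, beside 32.3 TPM for the A2-type member. SDS was also listed at 0. The 10 members summed to 1354 TPM and the other 12 genes to 18.7 TPM. After 1 TPM was added to both sums, their log2 ratio was 6.11. It was 3.67 without the highest gene, and 3.92 when levels were averaged over genes on the log2(TPM + 1) scale. Similar genes of 1 family can share reads, and how the authors' estimation divided them was not examined, so a low value beside a high relative is uncertain.

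Within the members, the 4 B1-type genes summed to 1161 TPM and the 3 B2-type genes to 32.4 TPM, which is a log2 ratio of 5.12 on the same scale. Without the highest gene the log2 ratio was 0.81. The 2 A-type members summed to 64.0 TPM and the 8 B-type members to 1290 TPM, a log2 ratio of -4.31. This ratio rests on the highest gene and on the larger number of B-type genes. It was -1.52 without that gene, and 0.57 when levels were averaged over genes on the log2(TPM + 1) scale in place of summed.

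The kinase partners of the cyclins had widely differing levels. Of 12 genes for cyclin-dependent kinases, their CKS subunits and WEE1, 7, or 58.3%, reached 1 TPM, against 21.7% of all transcripts. CKS2, which encodes a small subunit that binds these kinases, was at 3144 TPM, above every cyclin described here, and CKS1 was at 203 TPM. The main cell cycle kinase gene, CDKA;1 (AT3G48750), was at 0.0906 TPM for the 1 transcript listed. How reads from other transcripts of that gene were treated was not examined. The B-type kinases are specific to plants and act around mitosis. Among them CDKB1;2 was at 318 TPM and CDKB2;2 at 293 TPM, while CDKB1;1 was at 17.0 TPM and CDKB2;1 at 2.55 TPM. The 4 genes summed to 630 TPM, beside 1290 TPM for the 8 B-type cyclins. The lowest genes of this list encode kinases that activate other cyclin-dependent kinases, AT1G66750 at 0.0235 TPM and AT1G73690 at 0.00889 TPM. WEE1, an inhibitory kinase of the cell cycle, was at 0.0799 TPM.

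Genes of the APC/C, which ends cyclin activity, were mostly below the members' median of 27.0 TPM. Of 19 subunit, activator and inhibitor genes, 13, or 68.4%, reached 1 TPM, against 21.7% of all transcripts. Their median was 2.30 TPM, against 0.0209 TPM over all transcripts. APC11, the RING finger subunit, was the exception at 203 TPM. The core subunit gene CDC27A was at 18.6 TPM, beside 0.387 TPM for HBT, which encodes the alternative form of the same subunit. The activator CCS52A2 was at 12.1 TPM, and SAMBA, a regulator that interacts with A2-type cyclins, was at 9.54 TPM. The lowest were APC7 at 0.0105 TPM and APC2, the cullin-like core subunit, listed at 0. Whether a 0 here means that the transcript is absent was not tested, so it is read only as a listed value.

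**Figure D3:**
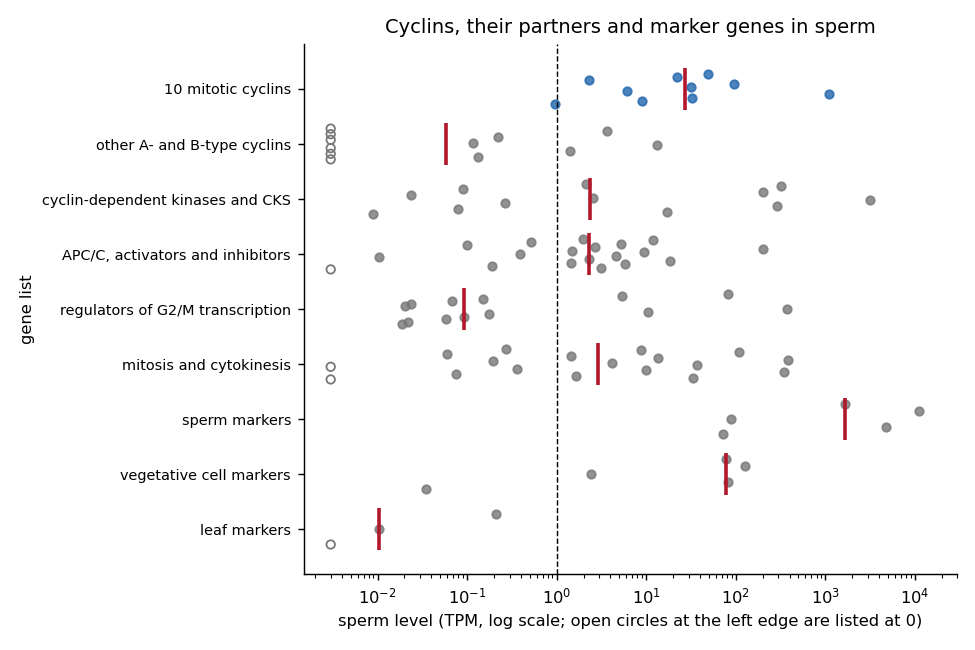
Sperm level in TPM on a log axis for every gene of each list, with a red bar at the list's median and a dashed line at 1 TPM. The 10 cyclins (blue) have a median of 27.0 TPM. Of the 13 regulators of G2/M transcription 4 reach 1 TPM, against 21.7% of all transcripts.

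Transcriptional regulators of G2 and M phase genes were mostly below 1 TPM, as were most of all transcripts. MYB3R factors bind the MSA element, a short promoter motif typical of plant B-type cyclin genes, and some of them activate while others repress such genes. Of the 5 MYB3R genes 1 reached 1 TPM, a share near the 21.7% of all transcripts. That gene was MYB3R5, which encodes a repressor, at 10.4 TPM. The activator MYB3R4 was at 0.177 TPM. Over the whole list 4 of 13 genes, or 30.8%, reached 1 TPM, near the 21.7% of all transcripts. The highest was ALY1, a plant relative of the animal cell cycle regulator LIN9, at 374 TPM. DUO1 was at 82.3 TPM, and SOG1, the regulator of the plant DNA damage response, at 5.32 TPM. The lowest were TCP20 at 0.0205 TPM and TSO1 at 0.0187 TPM. No promoter sequence was used here, so the presence of the MSA element in the members' promoters was not tested.

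Genes for the machinery of mitosis and cytokinesis varied widely. Of 18, 11, or 61.1%, reached 1 TPM, against 21.7% of all transcripts, with a median of 2.91 TPM. EDE1, a microtubule-binding protein needed for division in the endosperm, was at 383 TPM. The Aurora kinase genes were at 345 TPM (AUR3), 109 TPM (AUR2) and 37.3 TPM (AUR1). POK1 and POK2, kinesins that guide the division plane, were listed at 0.

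Marker genes set a scale for these levels. All 5 sperm markers reached 1 TPM, against 21.7% of all transcripts, and the lowest of them was at 71.8 TPM. DAZ3 was at 11141 TPM, MGH3, the sperm histone H3, at 4750 TPM, GEX1 at 1670 TPM, HAP2 at 87.9 TPM and GEX2 at 71.8 TPM. The 2 highest cyclins were both above HAP2 and GEX2, which act in gamete fusion and adhesion. Markers of the vegetative cell, the pollen cell that encloses the sperm, had uneven levels. The 5 summed to 292 TPM, with 4 of 5 at or above 1 TPM, against 21.7% of all transcripts. AGP6 was at 127 TPM, AGP11 at 83.0 TPM, VGD1 at 78.9 TPM, ANX1 at 2.40 TPM and VEX1 at 0.0350 TPM. The highest cyclin was above all 5. Of the other 9 members, only the second highest was above AGP11 and VGD1, and none was above AGP6. The part of vegetative cell RNA in the members' levels was not tested. The leaf markers LHCB1.3 and RCA were at 0.210 TPM and 0.0104 TPM, and LHCB2.1 was listed at 0. In RNA from pooled cells, fewer cells that hold a transcript and less of it per cell cannot be told apart.

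The genes next to the cyclins along the chromosomes had widely differing levels. For each member the nearest protein-coding gene on either side was taken from the reference annotation's gene order. Of these 20 genes, 6 reached 1 TPM, against 25.8% of protein-coding loci. Listed at 0 were 6 of the 20, beside 43.1% of all transcripts, a share not computed over protein-coding loci alone. The median of the 20 genes was 0.0212 TPM, against 0.0552 TPM over protein-coding loci. The highest cyclin lies between SNX1 at 0.207 TPM and ATO at 18.3 TPM. CYCA2;1 lies between PLDALPHA3 at 0.00673 TPM and SHN3, listed at 0. In all, 7 members were above both of their neighbours, a share not computed over all genes, so the count describes these members only. The exceptions were CYCB2;2, next to AT4G35610 at 3183 TPM, CYCB1;3, next to AT3G11530 at 139 TPM, and CYCB2;3, next to the catalase gene CAT3 at 24.5 TPM. Whether these transcripts overlap the cyclins, and whether the authors' estimation used the strand of the reads, was not examined.

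**Figure D4:**
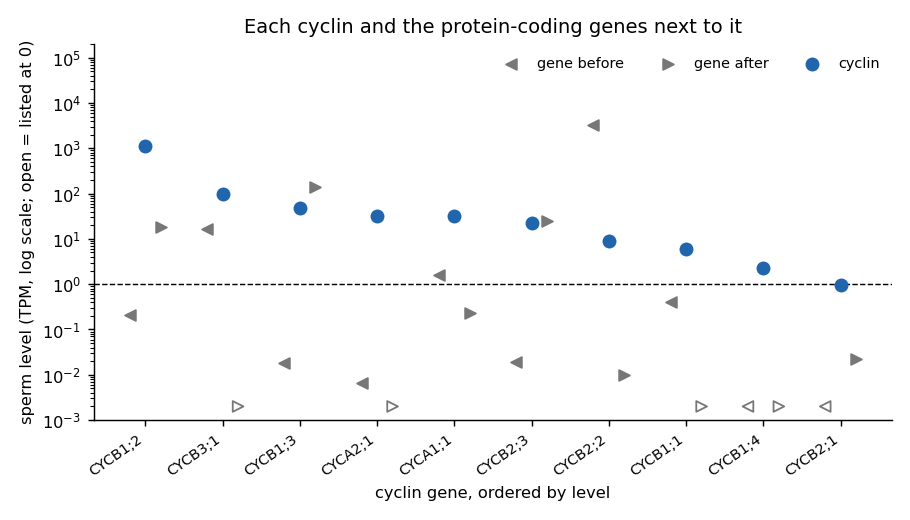
Level in TPM on a log axis of each cyclin (blue) and of the protein-coding genes before and after it along the chromosome (grey triangles, open where listed at 0), ordered by the cyclin's level. The cyclin is the highest of its 3 genes in 7 of 10 cases, a share not computed over all genes.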

How the data were processed

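The deposited table holds TPM values that the authors averaged over 3 sperm libraries into 1 column, which sums to 1000000. The submitters' processing notes list kallisto 0.43.1, STAR 2.5.2a, Trim Galore 0.4.1, SAMtools, bedtools and the build TAIR10 without roles, and the annotation quantified is not given in the sources used here. Another 13 value columns of the table match none of the samples and were left out. Depth is unknown, since no counts are kept, so no interval is given.

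Levels, ranks, counts, sums and 3 log2 ratios of sums plus 1 TPM were computed with Python 3.11.15, pandas 2.3.3 and numpy 2.4.6. The planned fits need values per library, so no test across libraries was run. All 9 gene lists, the members among them, were chosen with earlier results of these data known. Every member is named, with at most 4 of the highest and 2 of the lowest genes of each other list. CDKA;1, CDKB1;1, CDKB2;1, WEE1, HBT, MYB3R4, the list genes beyond 2 named at 0 and the neighbouring genes were named after their values were seen. Names, gene types and gene order, by chromosome and start position, came from RefSeq's table of assembly TAIR10.1. It held 88 of 97 list names. The digit reading was checked on simulated sums, which are not shown. That check held no library at 0 and required the exact place in most sums, not in all. Alternatives were a 5 TPM threshold, 0.1 TPM added, log2 averaging, rescaling without organellar or the 10 most abundant transcripts and, added after seeing the data, leaving out the highest member.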

Additional observations from a re-analysis of the deposited data

How the results depend on the processing

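At a threshold of 5 TPM, 8 of the 10 members passed in place of 9, with CYCB1;4 falling below it. The other cyclins examined went to 1 in place of 3 and the APC/C genes to 6 in place of 13. The remaining 6 list counts stayed within 1.5 times. Rescaling without organellar genes multiplied levels by 1.0029 and without the 10 most abundant transcripts by 1.83, and all 9 counts and 3 ratios stayed within 1.5 times under both, as the ratios did with 0.1 TPM added. The second rescaling brought CYCB2;1 past 1 TPM, so that 10 of 10 members passed in place of 9. Averaging over genes on the log2(TPM + 1) scale gave 2.13 for CYCB1 to CYCB2 and 3.92 for the members to the other cyclins. It turned A-type to B-type members to 0.57. By construction, an average drops the number of genes and lowers, but does not remove, the weight of CYCB1;2. Leaving out CYCB1;2 gave 0.81, -1.52 and 3.67 for CYCB1 to CYCB2, A-type to B-type and members to other cyclins. Leaving out each replicate was not run, because the table holds 1 mean per transcript, and the motif and protein settings were not run, because no sequences were used. No paired analysis was possible because there is 1 group and 1 column. Depth is unknown and limits what a value near 0 shows.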
